A study of Rattus norvegicus with 16 samples.

Results

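The genes described here are 10 genes of microglia and of the complement component C1q in the retina of newborn rats: Aif1, Csf1r, Cx3cr1, C1qa, C1qb, C1qc, Itgam, P2ry12, Cd68 and Tyrobp. They were taken by name, as the probe sets of an Affymetrix gene array whose platform annotation gives 1 gene symbol equal to one of these names. All 10 were found, each with 1 probe set, among 14324 genes and 27342 probe sets in all. None was filtered out for low signal.

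Retinal RNA was measured on 16 arrays, which form 8 groups of 2. Litters of F344 (Fischer) or SD (Sprague Dawley) rats entered an oxygen chamber within 12 hours of birth and alternated between 80% and 21% oxygen every 24 hours, called cyclic hyperoxia or O2 below, until post-natal day 5 or 6. The controls were litters of the same strain and age in room air, called RA. By the 24-hour schedule, O2 retinas of day 5 and day 6 would fall in opposite phases of the oxygen cycle. Age and oxygen phase therefore cannot be told apart between the days under O2. The study asked how gene expression differs between rat strains that resist oxygen-induced retinopathy and strains that are susceptible to it; F344 is known as the resistant strain and SD as the susceptible one. The groups were SD O2 day 6, F344 O2 day 6, SD RA day 6, F344 RA day 6, SD O2 day 5, F344 O2 day 5, SD RA day 5 and F344 RA day 5. Each array carried RNA pooled from several rats. The submitters name 3 rats and 2 litters without saying whether these make up a single pool, so p-values measure the spread between pools and not between single animals. Exposure was given to whole litters, and whether the pools of a group share litters is not stated. The p-values treat the pools as independent.

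Microglia are the resident macrophages of the retina and brain. They depend on the receptor Csf1r and its ligands Csf1 and Il34, sense neurons through Cx3cr1 and injury through the ADP receptor P2ry12, and signal through the adaptor Tyrobp, known as DAP12. In the mouse brain they are the main source of C1q, the recognition molecule of the classical complement pathway, which is built from the A, B and C chains encoded by C1qa, C1qb and C1qc. C1q and its downstream products can mark synapses, cell debris and dying cells for uptake by microglia, in part through complement receptor 3, whose alpha chain is Itgam.

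All values are log2 expression values of the deposited table, and a difference of 1 is a doubling. Differences are given as the log2 change with its standard error from limma, and a gene is called where its adjusted p is under 0.05 over all 14324 genes. The arrays had medians between 5.45 and 5.52. Precision is limited by how few arrays there are. Replicate 2 of F344 O2 day 6 stood apart. It had the lowest interquartile range of the 16 arrays, 2.81, and correlated with its partner at 0.987, against 0.992 to 0.997 in the other pairs. Calls of the 10 genes that use it, and the F344 values of day 6, are given with and without it.

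The tissue label held against markers of the retina. The photoreceptor genes Crx, Nrl and Sag averaged 10.8, 9.91 and 11.3 over the 16 arrays, and 7 of 8 measured photoreceptor genes averaged above 5.45, the lowest array median. The microglial genes gave dim signals, as probe brightness and not as a ranking of RNA amounts. Aif1, Itgam, Cd68 and Tyrobp lay below the median of their own array on all 16 arrays, Csf1r and C1qc lay above it on all 16, and the other 4 crossed it. Detection calls were not used here. In whole retina, fewer microglia and less RNA per microglial cell cannot be told apart.

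The promoters of C1qa and C1qb are shown because the results turn on the C1q chains. The third chain, C1qc, had no promoter sequence in the reference used. C1qa and C1qb were also the pair of chains with the most alike values over the arrays. The C1qb, C1qc and C1qa genes lie next to each other on rat chromosome 5, in this order in the RefSeq gene table of assembly GRCr8. Below are the 250 bases before and 50 bases after each annotated start, 5′ to 3′ on the gene's own minus strand, from RefSeq GRCr8. Capitals mark GAGGAA, a core of the purine box bound by the myeloid factor PU.1, or its reverse complement TTCCTC.
C1qa, chr5:154419884-154420183: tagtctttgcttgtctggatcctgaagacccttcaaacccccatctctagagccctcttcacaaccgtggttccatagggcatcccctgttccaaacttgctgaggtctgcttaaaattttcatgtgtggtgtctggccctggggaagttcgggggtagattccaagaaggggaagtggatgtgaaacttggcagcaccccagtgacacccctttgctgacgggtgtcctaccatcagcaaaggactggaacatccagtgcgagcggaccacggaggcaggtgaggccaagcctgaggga
C1qb, chr5:154407778-154408077: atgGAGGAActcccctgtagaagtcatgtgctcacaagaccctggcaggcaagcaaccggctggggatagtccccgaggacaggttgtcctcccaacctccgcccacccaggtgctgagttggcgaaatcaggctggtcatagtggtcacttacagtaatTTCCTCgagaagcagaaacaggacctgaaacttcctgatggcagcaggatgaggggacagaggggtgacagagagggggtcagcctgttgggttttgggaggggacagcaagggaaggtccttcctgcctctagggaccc
The C1qb window held GAGGAA once on the printed strand, starting at base 4 of the window, and once on the other strand, starting at base 161, which are positions -247 and -90 relative to the annotated start. The C1qa window held it 0 times. The letters occur on either strand in 27.6% of 33469 rat promoters of this length. Of the 10 genes 6 were found in the promoter table, and C1qc, Aif1, P2ry12 and Tyrobp were missing from it. Itgam, Cd68 and Csf1r had 2 matches each while Cx3cr1 had 0. A tandem GAAA element of the IRF family, with 2 bases between its repeats, occurred in 0 of these 6 promoters and in 3.92% of all. The gene of PU.1 itself, Spi1, averaged 4.35 over the 16 arrays.

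**Figure D1:**
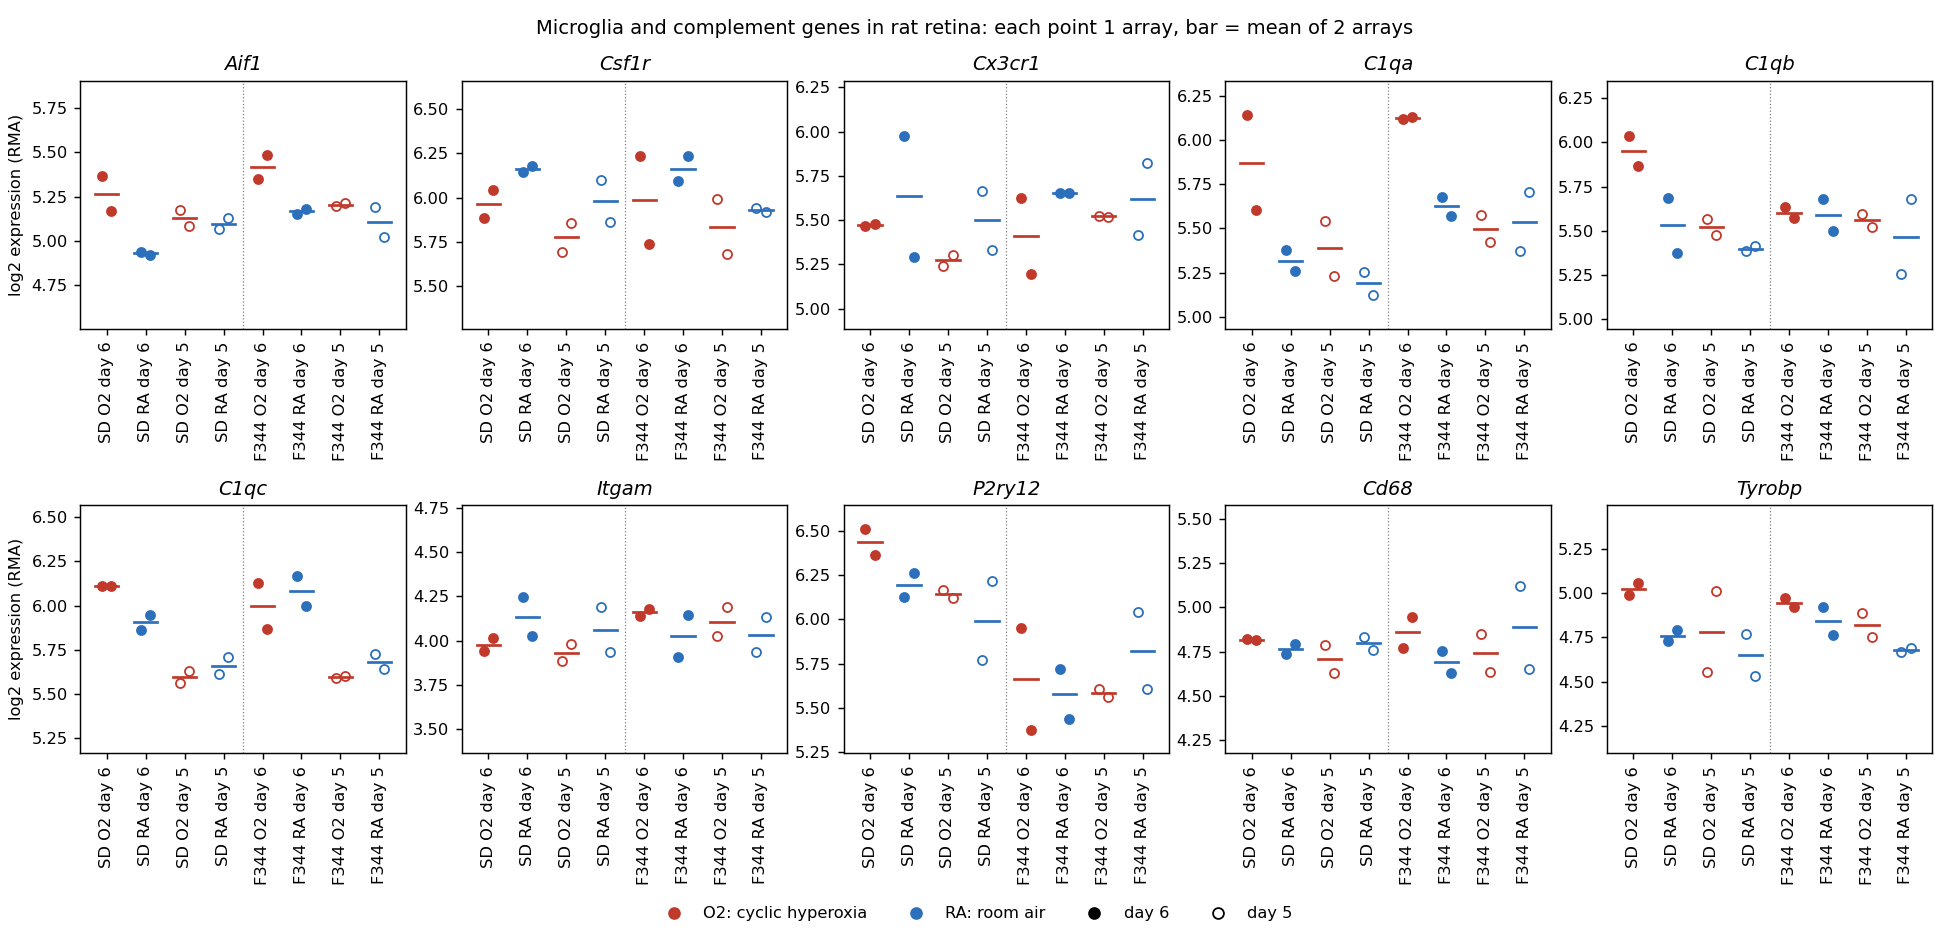
Log2 expression of the 10 genes on each of the 16 arrays by strain, exposure and day; each point is 1 array. C1qa and C1qc are higher on day 6 under O2 than on day 5, and P2ry12 is higher in SD O2 than in F344 O2 retinas on both days.

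On day 6, C1qa and Aif1 were higher in O2 than in RA retinas, and the other 8 genes were not called. C1qa encodes the A chain of C1q and averaged 6.00 ± 0.26 in O2 and 5.47 ± 0.19 in RA retinas (SD, n = 4 arrays each, both strains). Aif1 encodes Iba1, a calcium-binding protein used to stain microglia, and averaged 5.34 ± 0.13 in O2 and 5.05 ± 0.14 in RA retinas (SD, n = 4 each). The 2 of 10 called compare with 6.74% of all genes called in either direction and 4.01% called higher. The median difference was 0.14 over the 10 genes and -0.01 over all genes.

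C1qa was 6.14 and 5.61 in SD O2 and 6.12 and 6.13 in F344 O2 retinas on day 6, against 5.38 and 5.26 in SD RA and 5.68 and 5.57 in F344 RA retinas. Within each strain both O2 arrays lay above both RA arrays, but SD O2 replicate 2 fell between the F344 RA arrays, so the pooled groups overlapped. The log2 change was 0.53 ± 0.12 (95% confidence interval 0.28 to 0.77, adjusted p = 0.017), a 1.44-fold difference. It was 0.55 ± 0.16 in SD (adjusted p = 0.0785) and 0.50 ± 0.16 in F344 (adjusted p = 0.128), and the difference between strains was 0.06 ± 0.23 (adjusted p = 0.956). The SD value moved with its O2 arrays, to 0.29 without replicate 1 (adjusted p = 0.652) and 0.82 without replicate 2 (adjusted p = 0.0614). The F344 value was 0.49 without its O2 replicate 2 (adjusted p = 0.296). The call ended without SD O2 day 6 replicate 1 (0.39, adjusted p = 0.112), without F344 RA day 6 replicate 1 (0.55, adjusted p = 0.055) and without replicate 2 of that group (0.50, adjusted p = 0.072); without F344 O2 day 6 replicate 2 it was 0.52 (adjusted p = 0.0433).

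Aif1 was 5.36 and 5.17 in SD O2 and 5.35 and 5.48 in F344 O2 retinas on day 6, against 4.94 and 4.92 in SD RA and 5.15 and 5.18 in F344 RA retinas. Its O2 arrays lay above the RA arrays of the same strain, and 1 SD O2 array lay among the F344 RA arrays. The log2 change was 0.29 ± 0.08 (95% confidence interval 0.13 to 0.46, adjusted p = 0.0373), with 0.34 ± 0.11 in SD and 0.25 ± 0.11 in F344, neither called, and 0.18 in F344 without O2 replicate 2 (adjusted p = 0.568). This call was the less stable of the pair: leaving out 1 array gave 0.24 to 0.34 and ended it for 8 of the 16 arrays, namely both SD O2 day 5 arrays (0.29, adjusted p = 0.054), F344 O2 day 6 replicate 2 (0.26, adjusted p = 0.0975), F344 RA day 6 replicate 1 (0.28, adjusted p = 0.111) and replicate 2 (0.30, adjusted p = 0.1001), SD O2 day 6 replicate 1 (0.24, adjusted p = 0.190), and SD RA day 6 replicate 1 (0.30, adjusted p = 0.0817) and replicate 2 (0.29, adjusted p = 0.0719). A fit to the compared arrays only (adjusted p = 0.103) and array weights (adjusted p = 0.0768) ended it too.

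The other C1q chains did not pass the test on day 6. C1qb, the B chain, was 6.04 and 5.87 in SD O2 and 5.63 and 5.57 in F344 O2 retinas, against 5.69 and 5.38 in SD RA and 5.68 and 5.50 in F344 RA retinas. Its groups were apart in SD and overlapped in F344, with log2 changes of 0.42 ± 0.14 (adjusted p = 0.120) and 0.01 ± 0.14 (adjusted p = 0.978). The SD value was 0.26 without SD RA day 6 replicate 2 (adjusted p = 0.431) and 0.57 without replicate 1 of that group (adjusted p = 0.155), and the F344 value was 0.041 without F344 O2 day 6 replicate 2 (adjusted p = 0.952). The difference between these strain values was 0.41 ± 0.20 and was not called (95% confidence interval -0.02 to 0.84, adjusted p = 0.469). C1qc, the C chain, differed by 0.06 ± 0.08 over both strains (95% confidence interval -0.11 to 0.23, adjusted p = 0.707).

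Tyrobp, the signalling adaptor, was the only one of the 10 genes whose 4 O2 arrays all lay above its 4 RA arrays on day 6. It was 4.99 and 5.06 in SD O2 and 4.97 and 4.92 in F344 O2 retinas, against 4.73 and 4.79 in SD RA and 4.92 and 4.76 in F344 RA retinas. The margin was nil to 3 decimals: the lowest O2 array, F344 O2 replicate 2, and the highest RA array, F344 RA replicate 1, both read 4.919. The log2 change of 0.18 ± 0.10 did not pass the test (adjusted p = 0.274), and the pooled groups were apart for 7.78% of all genes. The receptors Csf1r and Cx3cr1 had negative values, -0.19 ± 0.11 (adjusted p = 0.325) and -0.20 ± 0.14 (adjusted p = 0.410), that were not called. Without F344 O2 day 6 replicate 1, however, Csf1r was called, at -0.31 (adjusted p = 0.0400), and without replicate 2 of that group it was -0.06 (adjusted p = 0.804). P2ry12 at 0.16 ± 0.13, the lysosomal glycoprotein gene Cd68 at 0.11 ± 0.10 and the integrin gene Itgam at -0.01 ± 0.09 had adjusted p of 0.493 to 0.954.

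Taken strain by strain on day 6, 0 of the 10 genes were called in SD, where 2.79% of all genes were, and 0 in F344, where 1.19% were. With 2 arrays a group the arrays of 9 genes did not overlap in SD, 7 of them higher and 2 lower in O2, while the arrays of 50% of all genes did not overlap, 25.3% higher and 24.7% lower. In F344 the arrays of 5 genes did not overlap, 4 higher and 1 lower, against 42.7% of all genes, 20.7% higher and 22% lower. Without F344 O2 day 6 replicate 2, 0 of all genes were called in F344 and 491 in place of 966 over both strains, and of the 10 genes 0 in F344 and 1, C1qa, over both strains. At an unadjusted p under 0.05, limma listed 3 of the 10 genes in SD and 2 in F344, against 18.8% and 17.6% of all genes.

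**Figure D2:**
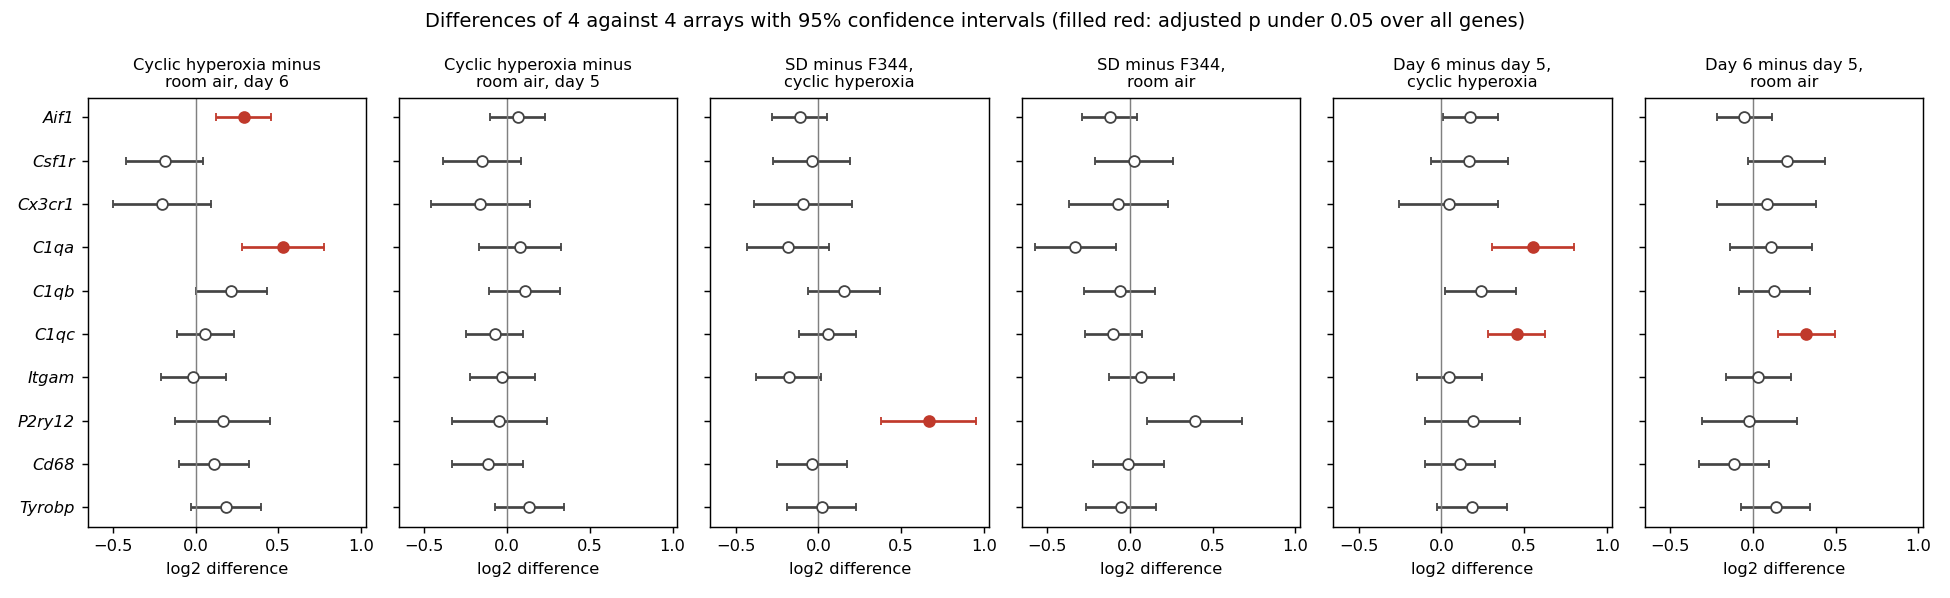
Log2 difference of each gene in the comparisons of exposure, strain and day, with 95% confidence intervals from limma. The intervals of C1qa on day 6 (0.28 to 0.77, O2 minus RA) and of P2ry12 under O2 (0.38 to 0.95, SD minus F344) lie above 0.

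Some markers of other cell types were called on the same day, when 6.74% of all genes were. In O2 retinas 3 of 10 endothelial genes were lower (Tek, Tie1 and Emcn) and 2 of 8 photoreceptor genes were higher (Nrl and Opn1sw). The endothelial list averaged 4.90 to 4.92 in SD O2 and 4.91 to 5.13 in F344 O2 arrays, against 5.19 to 5.20 in SD RA and 5.14 to 5.16 in F344 RA arrays. The photoreceptor list averaged 9.51 to 9.67 in SD O2 and 8.99 to 9.30 in F344 O2 arrays, against 9.44 to 9.58 in SD RA and 9.02 to 9.10 in F344 RA arrays. These photoreceptor ranges overlapped between O2 and RA in both strains. The part of both lists in the values of the 10 genes was not tested. Markers of perivascular macrophages and monocytes, which share Aif1, Csf1r, Cd68 and the C1q chains with microglia, were dim. Their list averaged 4.35 to 4.39 in SD O2 and 4.37 to 4.40 in F344 O2 arrays, against 4.33 to 4.38 in SD RA and 4.25 to 4.34 in F344 RA arrays on day 6. Of its 17 measured genes 0 were called and 0 averaged above the lowest array median; Cd74 (0.16 ± 0.08, adjusted p = 0.235) and Ms4a7 (0.11 ± 0.08, adjusted p = 0.485) had the smallest p.

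Of 36 further measured microglial genes of surface, signalling and transcription, 1 was higher in O2 on day 6 and 0 were lower, a share of 2.78% against 6.74% of all genes. It was Fcgr2b, the inhibitory IgG Fc receptor, at 4.92 ± 0.11 in O2 and 4.50 ± 0.13 in RA retinas (SD, n = 4 each). The groups did not overlap and differed by 0.42 ± 0.08 (adjusted p = 0.0125); Fc receptor genes are near copies of each other, so their probes can share targets. Leaving out F344 RA day 6 replicate 1 or SD O2 day 6 replicate 1 ended this call, with adjusted p of at most 0.0520. Trem2 (-0.02 ± 0.08) and Tmem119 (-0.08 ± 0.09), microglial surface genes, were not called.

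Of 22 measured phagocytic and lysosomal genes, 2 were higher in O2 on day 6 and 0 lower, a share of 9.09% against 6.74% of all genes. The tetraspanin gene Cd63, a marker of late endosomes, averaged 9.64 ± 0.22 in O2 and 8.997 ± 0.17 in RA retinas (log2 change 0.64 ± 0.12, adjusted p = 0.0107). The tetraspanin gene Cd9 differed by 0.38 ± 0.08 (adjusted p = 0.0134). Cd63 lost its call without SD O2 day 6 replicate 1 (0.0766) and Cd9 without that array or F344 RA day 6 replicate 1 (at most 0.0893, adjusted p in each case). These genes are not restricted to microglia.

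Among 16 measured ligands and partners of microglia, 0 were higher and 1 was lower in O2 on day 6, a share of 6.25% against 6.74% of all genes. Tgfb2, a transforming growth factor, averaged 8.95 ± 0.19 in O2 and 9.38 ± 0.11 in RA retinas, a log2 change of -0.43 ± 0.10 (adjusted p = 0.0188). The call ended for 4 arrays left out in turn (F344 O2 day 6 replicate 2, both F344 RA day 6 arrays and SD O2 day 6 replicate 1), with adjusted p up to 0.127, and also with the compared arrays only (adjusted p = 0.052). The Csf1r ligands Csf1 (0.05 ± 0.08) and Il34 (-0.05 ± 0.09) and the Cx3cr1 ligand Cx3cl1 (-0.15 ± 0.11) were not called.

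Of 33 other measured complement genes 0 were called on day 6, against 6.74% of all genes, with a list median of 0.08. Most were dim, and 8 of the 33 averaged above the lowest array median. The list includes C1q-like and lectin pathway genes, while C2, C4a, C4b and C5 were not among those measured. The central component C3 averaged 4.58 in O2 and 4.36 in RA retinas (0.21 ± 0.10, adjusted p = 0.195), and its fragment's receptor gene C3ar1 4.33 and 4.54 (-0.22 ± 0.09, adjusted p = 0.142). Calr, which encodes calreticulin, a partner of C1q in uptake, came closest to a call at 0.29 ± 0.09 (adjusted p = 0.0638). Serping1, the inhibitor of C1, was at -0.28 ± 0.11 (adjusted p = 0.125). Of 23 inflammatory mediators 0 were called, and 4 averaged above the lowest array median. Ccl3 (-0.15 ± 0.09) and Il18 (0.17 ± 0.10) had the smallest p.

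**Figure D3:**
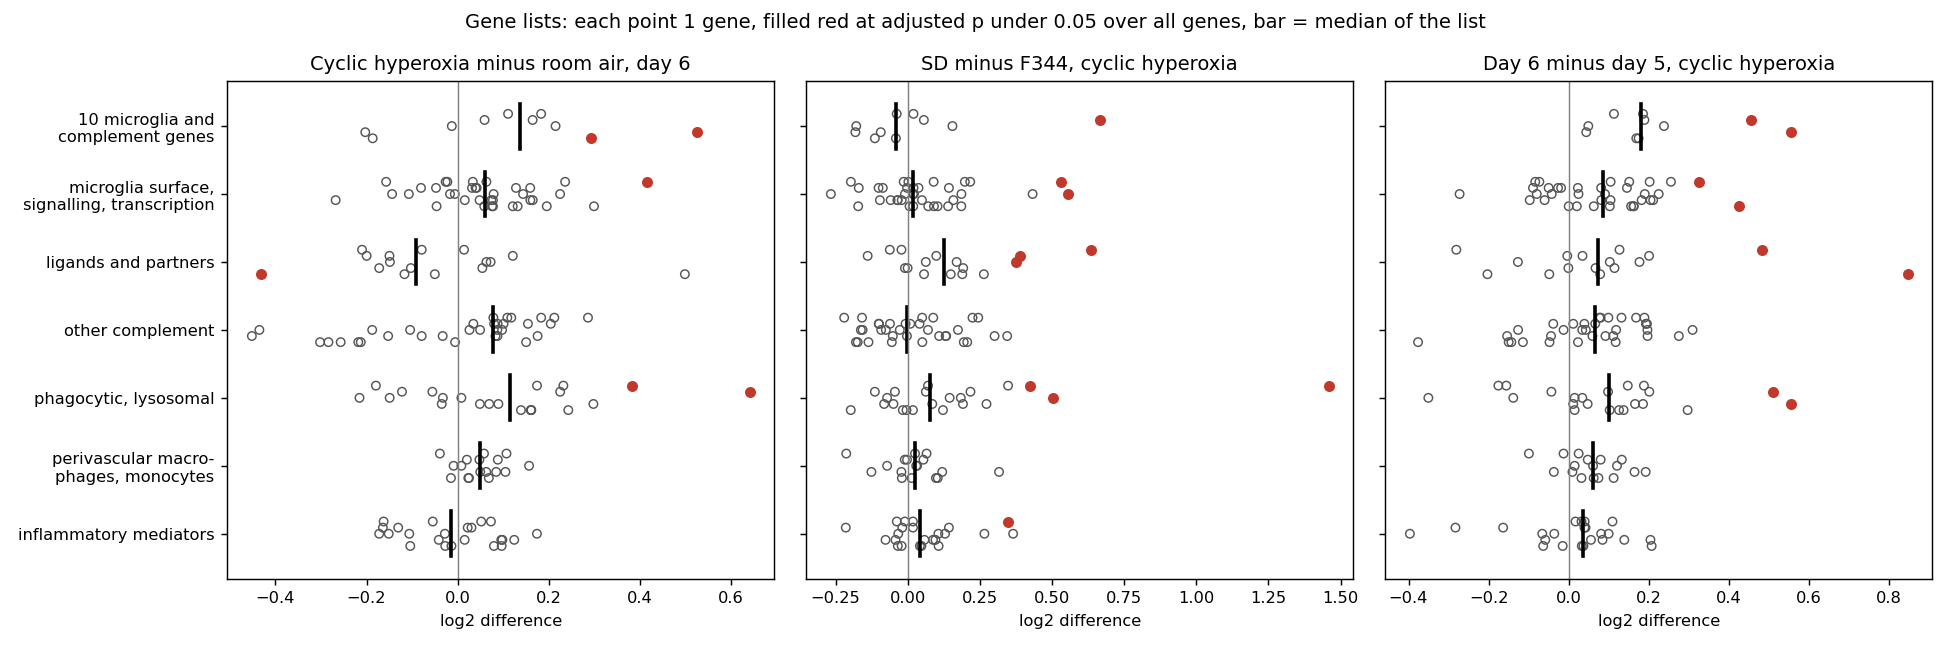
Log2 differences of the 10 genes and of the lists of related genes in the comparisons of exposure, strain and day; each point is 1 gene. In the O2 minus RA comparison on day 6, Cd63 (0.64) and C1qa (0.53) stand among the higher values and Tgfb2 (-0.43) among the lower ones.

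On day 5 none of the 10 genes differed between O2 and RA retinas by the test. The count was 0 of 10 over both strains, against 0.209% of all genes, 0 in SD (0.0628%) and 0 in F344 (0.126%), and 0 of the 10 genes had an unadjusted p under 0.05 in any of these, against 11.2% of all genes over both strains, 9.05% in SD and 8.36% in F344. Over both strains the values lay between -0.16 ± 0.14 for Cx3cr1 and 0.14 ± 0.10 for Tyrobp, with adjusted p of 0.636 or more. For C1qa the value was 0.08 ± 0.12, with a 95% confidence interval of -0.17 to 0.33. For Aif1 it was 0.07 ± 0.08. In all of the lists of microglial, ligand, complement, phagocytic, perivascular and inflammatory genes, 0 were called on day 5, while 2 of 10 endothelial genes were lower in O2. In F344 alone, 2 of 6 erythroid genes were lower in O2. Their list averaged 4.72 to 4.79 in F344 O2 and 5.05 to 5.31 in F344 RA arrays. In SD 0 of 6 were called, at 5.12 to 5.28 in O2 and 4.98 to 5.13 in RA arrays.

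The exposure difference of C1qa was larger on day 6 than on day 5 by 0.45 ± 0.16, and this did not pass adjustment over all genes (95% confidence interval 0.10 to 0.80, adjusted p = 0.437). Of the 10 genes 0 were called in that comparison, where 0.182% of all genes were. The next values were 0.23 ± 0.11 for Aif1 and 0.23 ± 0.14 for Cd68. Age and oxygen phase cannot be told apart in this comparison. Strain differences of the exposure effect were called for 0 of the 10 genes on day 6 (0.0559% of all genes) and 0 on day 5 (0%), so C1qb, with the widest strain gap on day 6, and P2ry12, with the widest on day 5 (0.39 ± 0.27, adjusted p = 0.869), stayed uncalled.

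Between the days, C1qc and C1qa were higher on day 6 than on day 5 under O2, and C1qc also in RA. The oxygen phase of the O2 groups changes with the day as well. Under O2, 2 of the 10 genes were called, against 4.8% of all genes in either direction and 2.1% higher, and all 10 had values above 0, with a median of 0.18 against 0.00 over all genes. C1qc averaged 6.05 ± 0.12 on day 6 and 5.60 ± 0.03 on day 5, and C1qa 6.00 ± 0.26 on day 6 and 5.44 ± 0.16 on day 5 (SD, n = 4 arrays each). The groups of both genes did not overlap, as was so for 8.59% of all genes. The day 6 O2 arrays also enter the exposure comparison above.

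C1qc under O2 was 6.11 and 6.11 in SD and 6.13 and 5.87 in F344 retinas on day 6, against 5.56 and 5.63 in SD and 5.59 and 5.60 in F344 retinas on day 5. Every day 6 array lay above every day 5 array, by a log2 change of 0.46 ± 0.08 (adjusted p = 0.00321), a 1.37-fold difference. The call held whichever array was left out, at 0.39 to 0.52, and without F344 O2 day 6 replicate 2 the value was 0.52 (adjusted p = 0.00113). In RA it was 5.86 and 5.95 in SD and 6.17 and 6.00 in F344 retinas on day 6, against 5.61 and 5.71 in SD and 5.73 and 5.64 in F344 retinas on day 5. Here too the groups did not overlap (4.1% of all genes), and the log2 change was 0.32 ± 0.08 (adjusted p = 0.0426). This was the only one of the 10 genes called in RA, against 3% of all genes. The RA call was fragile: without any 1 of 14 arrays its adjusted p was 0.0594 to 0.197, at 0.28 to 0.36, and it stayed called only without either F344 O2 day 6 array (adjusted p = 0.018 without replicate 2).

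C1qa under O2 was 6.14 and 5.61 in SD and 6.12 and 6.13 in F344 retinas on day 6, against 5.54 and 5.23 in SD and 5.58 and 5.42 in F344 retinas on day 5. The lowest day 6 array stood just above the highest day 5 array. The log2 change was 0.55 ± 0.12 (adjusted p = 0.0104). It was no longer called without F344 O2 day 5 replicate 2 (0.52, adjusted p = 0.054), SD O2 day 5 replicate 2 (0.48, adjusted p = 0.0762) or SD O2 day 6 replicate 1 (0.42, adjusted p = 0.0707), and was 0.55 without F344 O2 day 6 replicate 2 (adjusted p = 0.0258). In RA the C1qa value was 0.11 ± 0.12 (adjusted p = 0.742). C1qb differed by 0.24 ± 0.10 under O2 (adjusted p = 0.218) and 0.13 ± 0.10 in RA, and Aif1 by 0.17 ± 0.08 (adjusted p = 0.244) and -0.05 ± 0.08, all uncalled.

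Photoreceptor genes moved with the day. Under O2, 6 of 8 were higher on day 6, with a list median of 0.55, and the list averaged 9.51 to 9.67 in SD and 8.99 to 9.30 in F344 arrays on day 6, against 9.01 to 9.01 in SD and 8.64 to 8.83 in F344 arrays on day 5. In RA 1 of 8 was higher, with a median of 0.40. Of 10 endothelial genes 3 were higher on day 6 under O2 (Flt1, Tek and Plvap) and all 10 had values above 0, with a median of 0.23. Their list averaged 4.90 to 4.92 in SD and 4.91 to 5.13 in F344 arrays on day 6, against 4.73 to 4.75 in SD and 4.68 to 4.72 in F344 arrays on day 5; in RA 0 of 10 were called (median 0.14). Of 6 erythroid genes 2 were higher under O2, the globin genes Hbb (1.16 ± 0.13) and Hbb-b1 (1.03 ± 0.15), and 0 were called in RA. The erythroid list averaged 5.27 to 5.41 in F344 O2 arrays on day 6 and 4.72 to 4.79 on day 5. In SD O2 arrays it averaged 5.40 to 5.44 on day 6 and 5.12 to 5.28 on day 5. The part of these lists in the day differences of the C1q genes was not tested. Perivascular and monocyte genes counted 0 of 17 called in either exposure, and their list averaged 4.35 to 4.40 under O2 on day 6, against 4.26 to 4.36 on day 5.

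The lists of related genes held a few day calls under O2, where 4.8% of all genes were called and 2.1% called higher. Of 36 microglial genes 2 were higher (5.56%), Cyba, a subunit of the phagocyte NADPH oxidase (0.43 ± 0.10, adjusted p = 0.0187), and Fcgr2b (0.32 ± 0.08, adjusted p = 0.0341). Of 16 ligands and partners 2 were higher, the lipid carrier gene Apoe (8.48 ± 0.11 on day 6 and 7.64 ± 0.06 on day 5, log2 change 0.85 ± 0.15, adjusted p = 0.00351) and Gas6, a bridge between dying cells and phagocyte receptors (0.48 ± 0.11, adjusted p = 0.0183). Of 22 phagocytic genes 2 were higher, Gpnmb (0.55 ± 0.13, adjusted p = 0.0253) and Cd63 (0.51 ± 0.12, adjusted p = 0.0258). Apoe was called whichever array was left out, while leaving out 1 array ended the call for 4 arrays with Gpnmb (adjusted p up to 0.153), 5 with Cd63 (0.153), 6 with Cyba (0.1002), 6 with Gas6 (0.0821) and 9 with Fcgr2b (0.130). Fcgr2b also lost its call with the compared arrays only (adjusted p = 0.0681) and with array weights (adjusted p = 0.0526). Other complement genes counted 0 of 33, with Serping1 closest (-0.38 ± 0.11, adjusted p = 0.0642), and inflammatory genes 0 of 23, with Nos2 (-0.28 ± 0.10) and Vcam1 (-0.40 ± 0.16) closest.

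In RA, 1 of 36 microglial genes was lower on day 6, Olfml3 (-0.42 ± 0.10, adjusted p = 0.0408), and 1 of 16 ligands was higher, Gas6 (0.43 ± 0.11, adjusted p = 0.0474). These calls ended for 11 and 12 of the 16 arrays left out in turn, with adjusted p up to 0.188 and 0.215. Olfml3 was also lost after quantile normalization, with every probe set tested and with an intensity trend (adjusted p = 0.0562 to 0.0988). Gas6 was lost with the replicate block, the compared arrays only, array medians subtracted, every probe set and an intensity trend (adjusted p = 0.0539 to 0.113). The complement, phagocytic and inflammatory lists had 0 called. Olfml3 averaged 8.34 over the 16 arrays, against a median of 4.76 for its list, and which cells gave this signal was not tested.

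Between the strains under O2, P2ry12 was higher in SD than in F344 retinas and the other 9 genes were not called. P2ry12 averaged 6.29 ± 0.18 in SD O2 and 5.62 ± 0.24 in F344 O2 retinas (SD, n = 4 arrays each, both days). The count of 1 of 10 compares with 8.96% of all genes in either direction and 5.18% higher, so the share is near the background. The median of the 10 genes was -0.04, against 0.01 over all genes.

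On single arrays P2ry12 was 6.51 and 6.36 on day 6 and 6.16 and 6.12 on day 5 in SD O2 retinas, against 5.95 and 5.38 on day 6 and 5.60 and 5.56 on day 5 in F344 O2 retinas. No SD O2 array came as low as any F344 O2 array; the arrays of 2 of the 10 genes, P2ry12 and Itgam, and of 12.8% of all genes did not overlap in this comparison. The log2 change was 0.67 ± 0.13 (95% confidence interval 0.38 to 0.95, adjusted p = 0.0065), a 1.59-fold difference. It held in every alternative and with any 1 array left out, at 0.52 to 0.81 (adjusted p up to 0.0433), and was 0.52 without F344 O2 day 6 replicate 2 (adjusted p = 0.0191). P2ry12 has 1 probe set, so these alternatives all rest on the same probes. Whether the probes match both strains equally was not tested, for P2ry12 or for any other gene compared between strains.

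In RA the same gene was 6.13 and 6.26 on day 6 and 5.77 and 6.21 on day 5 in SD retinas, against 5.72 and 5.44 on day 6 and 6.04 and 5.61 on day 5 in F344 retinas. The groups overlapped through F344 RA day 5 replicate 1 and SD RA day 5 replicate 1. The log2 change of 0.39 ± 0.13 was not called (adjusted p = 0.0835), and 0 of the 10 genes were, against 9.35% of all genes. It was called without F344 RA day 5 replicate 1 (0.50, adjusted p = 0.0365), SD RA day 5 replicate 1 (0.50, adjusted p = 0.0438) or either F344 O2 day 6 array (0.39, adjusted p = 0.0337), and with array weights (adjusted p = 0.0459). Over the 8 groups the order of P2ry12 from high to low was SD O2 day 6, SD RA day 6, SD O2 day 5, SD RA day 5, F344 RA day 5, F344 O2 day 6, F344 O2 day 5 and F344 RA day 6, so every SD group stood above every F344 group, and below the top group all neighbours in this order overlapped.

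The genes next to P2ry12 did not share its strain difference by the test. P2ry12 lies on rat chromosome 2 beside other purinergic receptor genes. Its neighbour P2ry13, also an ADP receptor of microglia, was at 0.14 ± 0.13 under O2 (adjusted p = 0.576) and 0.18 ± 0.13 in RA (adjusted p = 0.464), and P2ry14 at -0.02 ± 0.10 and 0.13 ± 0.10. Of the 6 nearest measured genes, Gpr171, P2ry14, P2ry13, Igsf10, Aadacl2 and Aadac, 0 were called in either strain comparison, with Igsf10 closest (-0.25 ± 0.09 under O2, adjusted p = 0.0936).

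C1qa pointed the other way between strains, at -0.33 ± 0.12 in RA (5.25 ± 0.10 in SD and 5.58 ± 0.15 in F344 retinas, SD, n = 4 each), without passing the test (adjusted p = 0.0927). Without F344 RA day 5 replicate 1 it was called, at -0.41 (adjusted p = 0.0477). Under O2 its value was -0.18 ± 0.12 (adjusted p = 0.380). Itgam was 3.94 and 4.02 on day 6 and 3.88 and 3.98 on day 5 in SD O2 retinas, against 4.14 and 4.18 on day 6 and 4.03 and 4.19 on day 5 in F344 O2 retinas. The SD arrays were all lower, as for 5.45% of all genes, and the value of -0.18 ± 0.09 was not called (adjusted p = 0.263). Itgam was the dimmest of the 10 probe sets, with a range of 0.36 over the 16 arrays.

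The lists of related genes held strain calls, all of them higher in SD, in comparisons where 8.96% of all genes were called under O2 and 9.35% in RA. Of 36 microglial genes 2 were called in each (5.56%), below the share of all genes. They were, under O2, the lysosomal protease gene Lgmn (0.53 ± 0.09, adjusted p = 0.0026) and Olfml3 (0.55 ± 0.10, adjusted p = 0.00405), and in RA Lgmn (0.48 ± 0.09) and Fcer1g, a signalling chain of Fc receptors (0.43 ± 0.10, adjusted p = 0.0127). Lgmn and Olfml3 averaged 9.02 and 8.34 over the 16 arrays, against a median of 4.76 for their list. Which cells of the retina gave these signals was not tested. Of 16 ligands and partners 3 were called under O2, the don't-eat-me signal gene Cd47 (0.63 ± 0.08, adjusted p = 0.000279), Entpd1, which degrades ATP and ADP (0.39 ± 0.10, adjusted p = 0.0252), and Pros1 (0.38 ± 0.10, adjusted p = 0.0357), and 2 in RA, Cd47 (0.70 ± 0.08) and Entpd1 (0.43 ± 0.10). Cd47 and Lgmn kept both calls with any array left out. Entpd1 under O2 and Pros1 lost theirs for 7 and 9 of the 16 arrays (adjusted p up to 0.0907 and 0.128), and both with the compared arrays only (adjusted p = 0.0501 and 0.0584). Entpd1 and Fcer1g in RA lost theirs for 2 arrays each (adjusted p up to 0.0656 and 0.0608).

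The phagocytic list counted 3 of 22 under O2, Cd9 (1.46 ± 0.08, adjusted p = 1.47e-08), Ctsl (0.42 ± 0.09, adjusted p = 0.00852) and Ctsb (0.50 ± 0.11, adjusted p = 0.00881), and 2 in RA, Cd9 (1.40 ± 0.08) and Igf1 (0.37 ± 0.09, adjusted p = 0.0181). Cd9 was 9.61 ± 0.13 in SD O2 and 8.15 ± 0.14 in F344 O2 retinas. Its strain difference was called with any array left out, while Ctsl (without SD O2 day 6 replicate 1, adjusted p = 0.0511) and Ctsb (without F344 O2 day 5 replicate 2, adjusted p = 0.0537) each depended on 1 array and Igf1 on 4 (up to 0.0865). Complement genes counted 0 of 33 under O2 and 3 in RA, C1ql3 (0.88 ± 0.20, adjusted p = 0.0136), which despite its name is a neuronal C1q-like protein, the complement regulator gene Cr1l (0.43 ± 0.10, adjusted p = 0.0193) and C3ar1 (0.32 ± 0.09, adjusted p = 0.0344). These calls ended for 1 array (F344 RA day 6 replicate 1, adjusted p = 0.0673), 4 arrays (up to 0.103) and 6 arrays (up to 0.119). Cr1l was also lost with the compared arrays only (adjusted p = 0.0617) and C3ar1 after quantile normalization (adjusted p = 0.0774). Among inflammatory genes Ptgs2 was called under O2 (0.35 ± 0.09, adjusted p = 0.0294, ended for 6 arrays, up to 0.143) and 0 of 23 in RA.

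Photoreceptor genes differed between the strains as well, with 5 of 8 higher in SD under O2 (median 0.47) and 4 of 8 in RA (median 0.46). Their list averaged 9.51 to 9.67 on day 6 and 9.01 to 9.01 on day 5 in SD O2 arrays, against 8.99 to 9.30 on day 6 and 8.64 to 8.83 on day 5 in F344 O2 arrays, and its part in the P2ry12 difference was not tested. Of 10 endothelial genes 1 was lower in SD under O2 and 0 were called in RA, and of 6 erythroid genes 1 was higher in SD under O2 and 1 lower in RA. Perivascular and monocyte genes had 0 of 17 called in both exposures. Of 7 pigment epithelium genes 3 were called under O2 and 1 in RA. Ganglion cell genes counted 1 of 9 under O2 and 2 in RA, and astrocyte and Muller glia genes 1 of 10 and 2. These compare with 8.96% of all genes under O2 and 9.35% in RA. The part of these lists in the P2ry12 difference was not tested either.

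The 10 genes did not vary as 1 block over the arrays. Pearson correlations over the 16 arrays, given as a description since arrays share their groups, ran from -0.53 for Itgam with P2ry12 to 0.77 for Aif1 with C1qa. Of the 45 pairs 28 were above 0, and the median was 0.10. Among the C1q chains they were 0.65 for C1qa with C1qb, 0.53 for C1qa with C1qc and 0.52 for C1qb with C1qc, and each chain had 0.51 to 0.57 with Tyrobp. Once each group's mean was removed, all values rest on 8 pairs of arrays and are imprecise. C1qa with C1qb was then 0.73, the highest of the chain pairs. Within groups C1qa with C1qc was -0.22, C1qb with C1qc -0.098, and Tyrobp had -0.26 with C1qa, -0.084 with C1qb and 0.24 with C1qc. Csf1r had 0.56 with C1qc over the arrays, above the values of C1qc with C1qa and C1qb. P2ry12 had 0.24 with C1qc over the arrays and 0.88 within groups, which likewise rests on 8 pairs of arrays. The receptors Csf1r and Cx3cr1 correlated with each other at 0.54, and with Aif1 at -0.34 and -0.38.

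**Figure D4:**
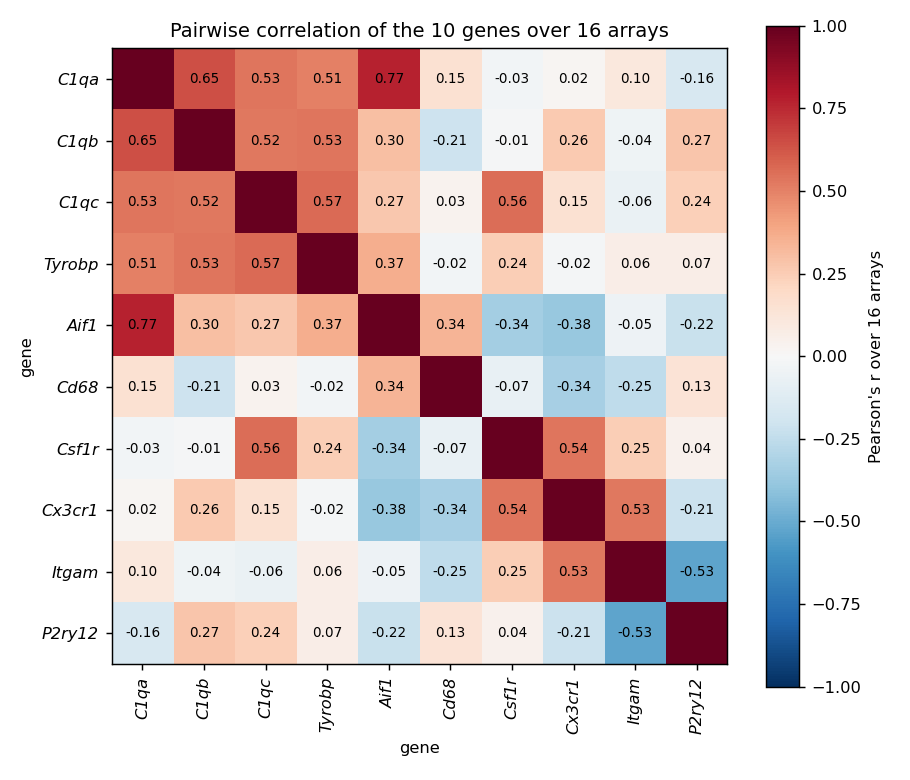
Pearson's r between each pair of the 10 genes over the 16 arrays. C1qa, C1qb, C1qc and Tyrobp are positive with each other over the arrays (0.51 to 0.65), and Itgam and P2ry12 have the lowest value (-0.53). Once group means are removed, 4 of the 6 pairs among C1qa, C1qb, C1qc and Tyrobp read below 0 (-0.26 to -0.084). Those values are not drawn, rest on 8 pairs of arrays and are imprecise.

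Outside the 10 genes, the pattern most like their mean over the 16 arrays was that of Oat, an enzyme of ornithine metabolism, with a correlation of 0.94, followed by Gsg1 (0.85), Gipr (0.85), Mtfp1 (0.84), Pmm1 (0.84), Slc2a3 (0.84), Bsg (0.83) and the rod factor gene Nrl (0.83). For C1qa alone it was Rab24 (0.95), Rras (0.91) and Sdf2 (0.90), for C1qb Tspan31 (0.89), and for C1qc Gas6 (0.89) and Ppm1n (0.88). For P2ry12 it was Rabl3 (0.93), Emc7 (0.92), Dipk1a (0.91) and Prnp (0.91), and this last ranking was added after the values were seen. Beside the C1q genes on chromosome 5, Epha8 was lower in O2 retinas on day 6 (-0.36, adjusted p = 0.036), while C1qa was higher there. Between strains in RA, Epha8 (-0.36, adjusted p = 0.0296) and Kdm1a (-0.37, adjusted p = 0.0084) were lower in SD. The uncalled C1qa value of -0.33 had the same sign. Under O2 Kdm1a was lower in SD too (-0.33, adjusted p = 0.0145). Epha8 under O2, and Ephb2, Wnt4 and Cdc42 in both exposures, were not called between strains.

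Over the 8 groups, C1qa from high to low was F344 O2 day 6, SD O2 day 6, F344 RA day 6, F344 RA day 5, F344 O2 day 5, SD O2 day 5, SD RA day 6 and SD RA day 5, and each neighbour in this order overlapped the next except the last pair. C1qc put the 4 groups of day 6 above the 4 of day 5, and the step between the days, between SD RA day 6 and F344 RA day 5, was the only one at which neighbours did not overlap. Aif1 was highest in F344 O2 day 6 and lowest in SD RA day 6, where its arrays (4.94 and 4.92) lay below all others. C1qb was highest in SD O2 day 6, apart from the next group, and the remaining groups overlapped their neighbours. For Csf1r, Cx3cr1, Itgam and Cd68 all neighbours in the order overlapped. Their whole ranges over the 16 arrays were 0.55, 0.78, 0.36 and 0.49, and Tyrobp spanned 0.53.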

How the data were processed

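The authors deposited one table of log2 expression values, which per the submitters' processing notes were made with Partek 6.4 and RMA, a method that corrects background, quantile-normalizes probes and summarises probe sets. Scanner files were not analysed here. Of 27342 probe sets 15097 had 1 symbol in the platform annotation, updated through Entrez identifiers to RefSeq (GRCr8) for 15067 of them. The set with the highest mean stood for each of 499 genes with several, leaving 14324. limma 3.58.1 in R 4.3.3 fitted 1 mean per group to all 16 arrays (8 residual and 7.41 prior degrees of freedom), with 13 contrasts and Benjamini-Hochberg adjustment over all genes. The fit was tested on simulated data. No array was dropped.

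Named genes are the 10 chosen ones, the genes of the other lists called in a contrast (up to 6 by smallest p, or the 2 with the smallest p in lists with none called), Csf1, Il34, Cx3cl1, Trem2, Tmem119, C3 and C3ar1, and the 8 genes most alike in pattern. Other cell type lists are given mainly as counts. Crx, Nrl and Sag and the chromosomal neighbours were named outside this rule. The genes and lists were chosen with earlier results of these data known. For the lists of microglial, ligand, complement, phagocytic and inflammatory genes, alternatives that end a call stand beside it, the others at the end. Calls in the other cell type lists, and of chromosomal neighbours outside the 10 genes, were not followed through the alternatives. Whether those calls hold with an array left out was not tested. The labels do not state that replicate numbers pair the arrays, and the main fit did not pair them.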

Additional observations from a re-analysis of the deposited data

How the results depend on the processing

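The P2ry12 strain difference and the C1qc day difference, both under O2, were called in every alternative run and with any 1 array left out; the 2 C1qa calls and the Aif1 call depended on single arrays, as given with them. The cause of such losses was not tested. A block on the replicate number was also run, although the labels do not state that the numbers pair the arrays. Deviations of same-numbered arrays correlated above 0.1 in 8 of 28 pairs of groups, with values between -0.29 and 0.52. The block ended the C1qc call in RA (adjusted p = 0.0525, 0 of the 10 genes called). It gave 5 genes in place of 8 for the strain difference of the exposure effect on day 6, and moved no other count over 1.5-fold.

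Of the 10 genes, 2 were called for O2 against RA on day 6, and 1 with the compared arrays only, with array weights or with dim genes left out, which leaves Aif1 untested. For day 6 against day 5 in RA 1 was called, and 0 with the compared arrays only, with array medians subtracted, with every probe set tested or with an intensity trend. For SD against F344 in RA 0 were called and 1 with array weights. Leaving out 1 array gave 0 to 3, 0 to 1 and 0 to 2 in these comparisons, and 1 to 2 for day 6 against day 5 under O2.

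Counts over all genes moved more. With the compared arrays only and with array weights, O2 against RA on day 6 gave 396 and 494 genes in place of 966 over both strains, 233 and 800 in place of 400 in SD, and 0 and 0 in place of 170 in F344, where every probe set gave 111 and an intensity trend 71. On day 5 array weights gave 58 in place of 30 over both strains and 28 in place of 9 in SD, and the compared arrays only 16 in SD, 4 in place of 18 in F344, and 214 in place of 430 for the days in RA. The strain difference of the exposure effect on day 6 gave 0 genes with the compared arrays only or array weights, 4 after quantile normalization, 5 without dim genes, 14 with every probe set and 3 with an intensity trend. Quantile normalization gave 41.7% of called genes higher in O2 in F344 on day 6, in place of 28.8%, and 75% with the larger exposure difference in SD, in place of 87.5%, in that strain difference.

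Leaving out 1 array gave 53 to 2829 genes for O2 against RA on day 6 over both strains, 0 to 994 in SD and 0 to 1621 in F344, 14 to 54 on day 5 over both strains, 0 to 15 in SD and 4 to 19 in F344, 476 to 1908 for SD against F344 under O2 and 615 to 1844 in RA, 291 to 1796 for day 6 against day 5 under O2 and 92 to 676 in RA, 18 to 66 for the day difference of the exposure effect, and 0 to 181 on day 6 and 0 to 2 on day 5 for its strain difference.

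Of the 67 differences of the 10 genes followed, 23 changed sign in some alternative, all uncalled and at most 0.12 in size. After quantile normalization Itgam was -0.0019 for the days in RA and -0.0011 under O2, and C1qb in F344 on day 6 was -0.0079, or -0.012 with array medians subtracted. With 1 array left out, O2 against RA on day 6 ranged from -0.0062 to 0.12 for C1qc and -0.072 to 0.047 for Itgam, and in F344 alone from -0.078 to 0.10 for C1qb, and on day 5 from -0.0037 to 0.16 for C1qa, -0.23 to 0.0011 for Cd68, -0.091 to 0.035 for Itgam and -0.16 to 0.066 for P2ry12. SD against F344 under O2 ranged from -0.0097 to 0.12 for C1qc, -0.092 to 0.015 for Cd68, -0.17 to 0.083 for Csf1r, -0.20 to 0.015 for Cx3cr1 and -0.095 to 0.13 for Tyrobp, and in RA from -0.17 to 0.043 for C1qb, -0.13 to 0.11 for Cd68, -0.034 to 0.084 for Csf1r, -0.24 to 0.10 for Cx3cr1 and -0.11 to 0.0050 for Tyrobp. Day 6 against day 5 ranged from -0.064 to 0.15 for Cx3cr1 and 0.0090 to 0.089 for Itgam under O2, and in RA from -0.23 to 0.0031 for Cd68, -0.087 to 0.26 for Cx3cr1, -0.029 to 0.097 for Itgam and -0.13 to 0.090 for P2ry12.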
